A study of Mus musculus with 4 samples.

Results

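Schwann cell and nerve growth genes were examined in RNA sequencing of brown adipose tissue (BAT) from 4 male mice aged 15 weeks. The set held 7 named genes, S100b, Sox10, Mbp, Pmp22, Ngfr, Nrtn and Clstn3, each found by its symbol on 1 of the 55387 rows of each library. The mice were 2 Sox4f/f animals, which carry floxed Sox4 alleles and are labelled wild type, and 2 littermates labelled Sox4-MKO, in which Myf5-Cre recombines the same floxed alleles, and all had a C57BL/6 background and received no treatment. Myf5-Cre acts in the lineage that forms brown adipocytes and skeletal muscle, so it is not directed at Schwann cells or neurons. Whether it also acted in fibroblasts or vessels was not measured, and each library came from 1 mouse. The deposited values are FPKM, the fragments sequenced scaled to transcript length and to the mapped fragments of a library, and the depth was estimated at about 12200000 to 16300000 fragments per library.

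BAT is densely supplied by sympathetic nerves, whose noradrenaline starts heat production. The axons run with Schwann cells, glia of the peripheral nervous system that depend on the transcription factor Sox10 and wrap larger axons in myelin. Adipocytes in turn make proteins that act on nerves, among them the secreted growth factor neurturin (Nrtn) and S100b, a calcium-binding protein of Schwann cells that brown adipocytes also release with the help of an adipocyte form of calsyntenin 3 (Clstn3).

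Before the members, the labels were checked. Sox4 measured 1.98 and 1.06 FPKM in Sox4f/f mice against 0.98 and 3.06 FPKM under the Sox4-MKO label, so its mRNA was not lower under that label and all directions below follow the labels alone. Gm26735 overlaps Sox4 on the opposite strand over 2753 of its bases, and whether strand was used in counting is not given in the sources used here, so the Sox4 value may include its fragments. The sample labels name adipocytes as the cell type, while markers of several cell types were found. The summed level of 8 skeletal muscle markers was 181 and 666 FPKM in Sox4f/f mice 1 and 2, against 13107 and 2258 FPKM in those labelled Sox4-MKO. That of 6 fibroblast markers was 285 and 335 against 704 and 653 FPKM. The 8 adipocyte markers summed to 12641 and 13108 against 9652 and 12757 FPKM. In tissue of this kind, fewer cells of a type and less RNA per cell cannot be told apart.

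Of the 7 genes, 2 nerve growth genes had lower levels in both mice labelled Sox4-MKO, Clstn3 at 0.54 and Nrtn at 0.58 of the Sox4f/f mean, and neither passed an adjusted threshold. The myelin genes Mbp and Pmp22 had means 1.52 and 1.60 times those of Sox4f/f, and Pmp22 overlapped between the genotypes. S100b also overlapped. The Schwann cell factor Sox10 and the neurotrophin receptor gene Ngfr stayed under 1 FPKM in every library.
The test was limma on log2(FPKM + 1) over the 12877 genes whose mean FPKM exceeded 1 in either genotype, a filter that 5 members passed, each in both genotypes, and Sox10 and Ngfr did not. Differences are given on this log2 scale, where low genes appear to change less than they do. With unadjusted p-values under 0.05, limma called 2 members lower (Clstn3 and Nrtn), where 8.28% of all tested genes were called lower, and 0 members higher, where 7.95% of all were. After Benjamini-Hochberg adjustment it called 0 members and 0% of all genes. The libraries of the genotypes did not overlap at 2 members in the lower direction, against 29.6% of all tested genes, and at 1 (Mbp) in the higher direction, against 21.7%. The median log2 difference of the 5 members was -0.65, and that of all tested genes -0.05. For a single gene, 0.333 is the smallest two-sided p that an exact permutation of 4 mice allows.

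**Figure D1:**
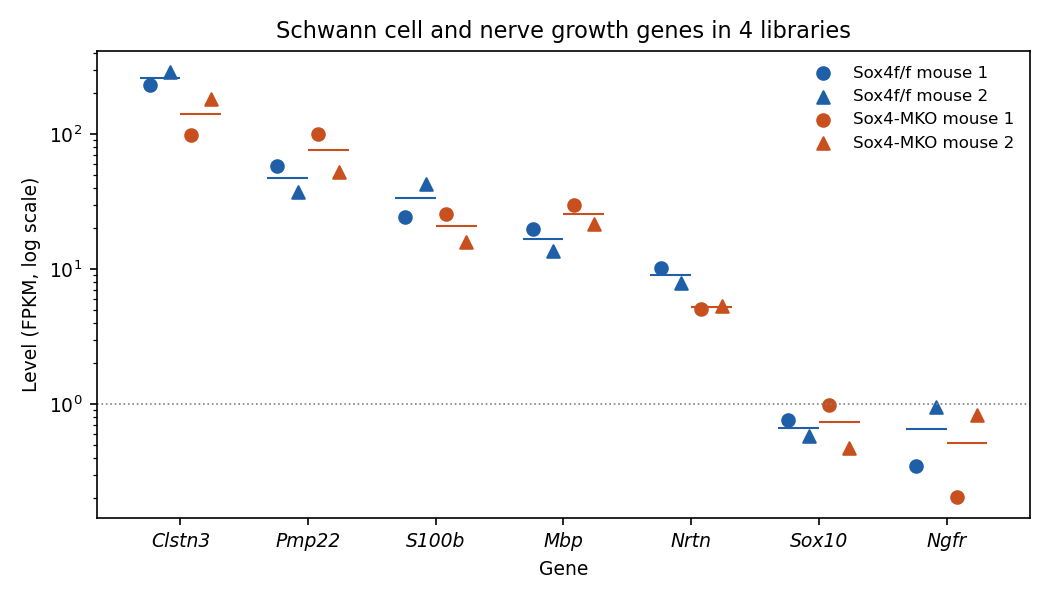
Level of each of the 7 genes in FPKM on a log axis, 1 point per library (circles mouse 1, triangles mouse 2), with horizontal lines at the genotype means and a dotted line at 1 FPKM. Clstn3 and Nrtn lie lower and Mbp higher in both Sox4-MKO libraries, and Sox10 and Ngfr lie under 1 FPKM in all 4.

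Measured per kilobase, the members ranged over more than 2 orders of magnitude on a log10 scale. The mean over the 4 libraries was 199.7 FPKM for Clstn3, 61.7 for Pmp22, 27.1 for S100b, 21.2 for Mbp, 7.11 for Nrtn, 0.70 for Sox10 and 0.58 for Ngfr. The ranges of neighbours in this order overlapped from Clstn3 down to Mbp and again between Sox10 and Ngfr. Mbp lay above Nrtn and Nrtn above Sox10 without overlap of their ranges.

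Clstn3 encodes calsyntenin 3, a membrane protein of the cadherin superfamily known from synapses, and occupies bases 124430759 to 124464794 of chromosome 6 (GRCm38, minus strand). It had 231.7 and 287.8 FPKM in Sox4f/f mice 1 and 2, whereas mice 1 and 2 labelled Sox4-MKO had 97.7 and 181.6 FPKM. Both of the latter were below both Sox4f/f libraries, and mouse 1 was the lowest. The means were 259.7 ± 39.6 and 139.6 ± 59.3 FPKM (SD, n = 2 each).
The log2 difference of Clstn3 was -0.95 (standard error, SE, 0.33, limma adjusted p = 0.275, unadjusted p = 0.0368). Leaving out Sox4-MKO mouse 1 gave -0.51, and leaving out mouse 2 of that label gave -1.39. The unadjusted limma p was 0.0889 without Sox4f/f mouse 1, 0.183 without Sox4f/f mouse 2 and 0.0644 without Sox4-MKO mouse 1, and each of these ended the call. The call also ended on quantile-normalized values, where limma gave -0.89 and an unadjusted p of 0.0725. It ended as well when libraries were rescaled leaving out Ucp1 and mitochondrially encoded genes, where limma gave -0.88 and an unadjusted p of 0.065. Without variance moderation the limma fit gave an unadjusted p of 0.181, which ended the call too. Relative to Plin1, which coats the lipid droplets of adipocytes, the Clstn3 level was 0.319 and 0.338 in Sox4f/f and 0.138 and 0.256 in the other libraries. It was thus lower per unit of this transcript, whose own log2 difference was -0.15. The adipocyte markers Ucp1 and Cidea had log2 differences of -1.06 and -0.86, and the Clstn3 level relative to these was not tested. Clstn3 has 7 annotated transcripts, and the deposited level is a sum over the gene, so the adipocyte form was not measured apart. Its relative Clstn1 had 11.04 and 11.13 FPKM in Sox4f/f and 11.6 and 11.7 FPKM in the others, a log2 difference of 0.07, while Clstn2 stayed under 1 FPKM. Clstn3 was 8.39 to 25.9 times as high as Clstn1 in the 4 libraries.

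Nrtn encodes neurturin, a ligand of the GDNF family that sustains neurons through GFRα2 and the receptor kinase RET, and occupies bases 56751325 to 56757530 of chromosome 17 (minus strand). It had 10.1 and 7.84 FPKM in Sox4f/f mice 1 and 2. In those labelled Sox4-MKO it had 5.09 and 5.35 FPKM. The latter were close to each other and lower than both Sox4f/f libraries, with means of 8.99 ± 1.63 against 5.22 ± 0.18 FPKM (SD, n = 2 each).
The log2 difference was -0.67 (SE 0.18, limma adjusted p = 0.231, unadjusted p = 0.0158), and it lay between -0.84 and -0.51 with each library left out in turn. The unadjusted limma p was 0.0984 without Sox4f/f mouse 1, 0.0705 without Sox4-MKO mouse 1 and 0.0529 without mouse 2 of that label, and these left the call short of 0.05. The limma call also fell short after scaling libraries to adipocyte genes (unadjusted p = 0.0758) and without variance moderation (unadjusted p = 0.0578). About 66 to 142 fragments stood behind each value. Relative to Plin1 the Nrtn level was 0.0140 and 0.0092 in Sox4f/f, and 0.0072 and 0.0075 in the other libraries. The Nrtn level relative to Ucp1 and Cidea, whose log2 differences were -1.06 and -0.86, was not tested.

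S100b encodes the S100 protein used as a marker of Schwann cells and occupies bases 76253853 to 76261159 of chromosome 10 (plus strand). It had 24.2 and 42.8 FPKM in Sox4f/f mice 1 and 2, whereas mice 1 and 2 labelled Sox4-MKO had 25.6 and 15.9 FPKM. Sox4f/f mouse 2 was the highest and Sox4-MKO mouse 2 the lowest, while Sox4f/f mouse 1 and Sox4-MKO mouse 1 were close. The log2 difference of -0.65 had an SE of 0.36, with a limma adjusted p of 0.432. Leaving out each library in turn gave -0.25 without Sox4f/f mouse 2, -0.32 without Sox4-MKO mouse 2, -0.97 without Sox4-MKO mouse 1 and -1.05 without Sox4f/f mouse 1.
Per kilobase, the S100b level was 25.8 to 74.1 times that of Sox10 in the 4 libraries. S100b overlaps Dip2a on the opposite strand by 1731 bases. Dip2a had 10.6 and 12.2 FPKM in Sox4f/f and 6.16 and 8.12 FPKM in the others, and as for Sox4, fragments of the shared stretch may be assigned to either gene.

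**Figure D2:**
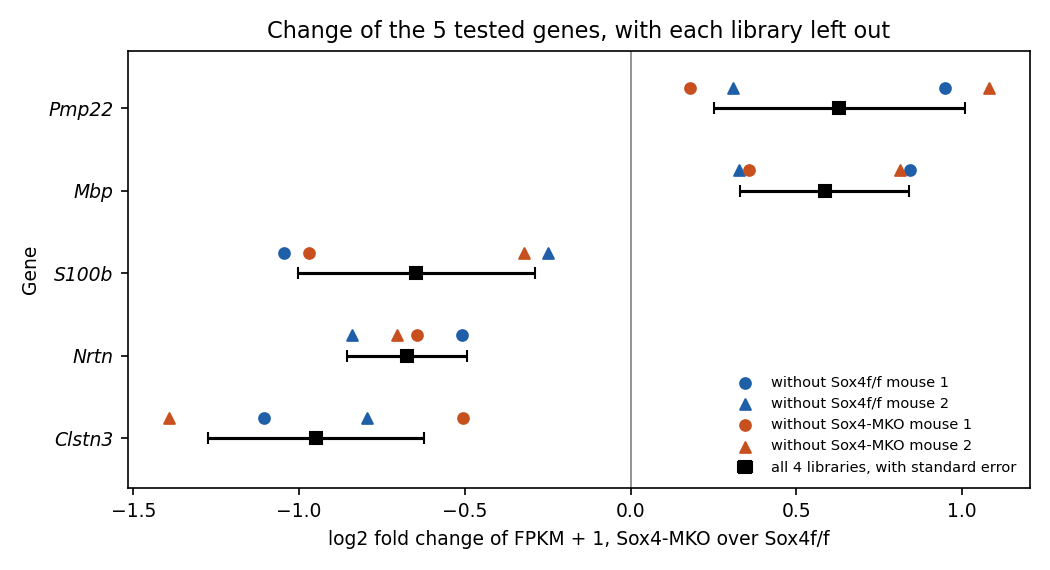
Log2 difference of FPKM + 1 between the libraries labelled Sox4-MKO and Sox4f/f for the 5 tested genes, as black squares with standard errors, and the value with each library left out as coloured points above. The points of Clstn3 run from -1.39 to -0.51 and those of Pmp22 from 0.18 to 1.08, while no gene changes sign.

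Since Clstn3, Nrtn and S100b were the 3 tested members with negative log2 differences, the 250 bases before their annotated starts are shown, read from RefSeq promoters of GRCm38.p6, in which 5 of the 7 genes have an entry. They were searched on both strands for 2 SOX core motifs, ACAAAG and ACAATG, and for the EBF half-site pair CCCNNGGG, because the study concerns SOX4 and EBF2. Capitals mark a match.
S100b: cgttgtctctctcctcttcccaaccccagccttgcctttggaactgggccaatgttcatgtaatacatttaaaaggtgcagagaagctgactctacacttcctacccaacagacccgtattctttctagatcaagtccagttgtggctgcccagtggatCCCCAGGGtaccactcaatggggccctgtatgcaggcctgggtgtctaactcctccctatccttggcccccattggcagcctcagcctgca
Nrtn: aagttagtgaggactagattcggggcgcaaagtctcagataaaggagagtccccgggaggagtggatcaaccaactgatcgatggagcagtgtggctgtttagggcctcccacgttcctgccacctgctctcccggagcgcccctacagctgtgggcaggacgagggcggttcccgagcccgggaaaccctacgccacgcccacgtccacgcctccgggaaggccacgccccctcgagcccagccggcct
Clstn3: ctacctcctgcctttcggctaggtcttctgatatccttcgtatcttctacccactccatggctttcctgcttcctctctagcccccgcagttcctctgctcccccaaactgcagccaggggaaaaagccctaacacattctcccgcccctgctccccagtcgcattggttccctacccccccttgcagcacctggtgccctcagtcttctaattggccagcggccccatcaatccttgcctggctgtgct
The windows are chr10:76253586-76253835 on the plus strand, chr17:56757549-56757798 on the minus strand and chr6:124464785-124465034 on the minus strand. S100b held 1 EBF match, which starts 91 bases before the annotated start, and none of the 3 windows held a SOX match. Clstn3 has 2 annotated starts, of which the more upstream is shown, and the window of the other held none of the motifs. Both lie near the upstream end of the gene, and a start of the adipocyte form was not looked for. In the windows of the same length of all 32851 promoters, 11.8% held the EBF letters and 25.2% held either SOX core. Of the other members, 1 of the 4 Pmp22 windows held the EBF letters and the Ngfr window held none of the motifs. These are letter matches in a short window and carry no information on binding.

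Pmp22 encodes peripheral myelin protein 22, a membrane protein of compact myelin that fibroblasts and other cells also express, and occupies bases 63128982 to 63159547 of chromosome 11 (plus strand). It had 58.1 and 37.0 FPKM in Sox4f/f mice 1 and 2, whereas mice 1 and 2 labelled Sox4-MKO had 99.1 and 52.6 FPKM. Sox4-MKO mouse 1 was the highest, and Sox4-MKO mouse 2 fell between the Sox4f/f mice. The log2 difference of 0.63 had an SE of 0.38, with a limma adjusted p of 0.462. Leaving out Sox4-MKO mouse 1 gave 0.18, and leaving out mouse 2 of that label gave 1.08, where the unadjusted limma p was 0.0367.

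Mbp encodes myelin basic protein, which compacts the myelin sheath, and occupies bases 82475146 to 82585637 of chromosome 18 (plus strand). It had 19.9 and 13.6 FPKM in Sox4f/f mice 1 and 2, whereas mice 1 and 2 labelled Sox4-MKO had 29.7 and 21.4 FPKM. Both of the latter were above both Sox4f/f libraries, although Sox4-MKO mouse 2 exceeded Sox4f/f mouse 1 only slightly. The means were 16.8 ± 4.44 and 25.6 ± 5.88 FPKM (SD, n = 2 each). Mbp has 16 annotated transcripts, and the deposited level is a sum over the gene, so its myelin forms were not measured apart.
The log2 difference of Mbp was 0.59 (SE 0.26, limma adjusted p = 0.348, unadjusted p = 0.0749). Leaving out each library in turn gave 0.33 without Sox4f/f mouse 2, 0.36 without Sox4-MKO mouse 1, 0.81 without Sox4-MKO mouse 2 and 0.84 without Sox4f/f mouse 1, with unadjusted limma p-values from 0.0526 to 0.323. The unadjusted limma p was under 0.05 on quantile-normalized values (0.0431, log2 difference 0.61) and after rescaling without mitochondrially encoded genes and Ucp1 (0.0367, log2 difference 0.65). The skeletal muscle markers given above were also highest in Sox4-MKO mouse 1, and their part in the values of Mbp and Pmp22 was not tested.

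Sox10, the transcription factor that defines the Schwann cell lineage and also marks melanocytes, occupies bases 79154908 to 79165240 of chromosome 15 (minus strand). It had 0.76 and 0.58 FPKM in Sox4f/f mice 1 and 2, whereas mice 1 and 2 labelled Sox4-MKO had 0.99 and 0.47 FPKM. The Sox4-MKO mice held both the highest and the lowest value, so the genotypes overlapped. These values rest on about 20 to 35 fragments each, and the exact 95% Poisson interval of the highest, 0.69 to 1.38 FPKM, met that of the lowest, 0.29 to 0.72 FPKM. Both intervals belong to Sox4-MKO mice and cover counting error only, so they are no test of a difference between the genotypes. Of the 6 melanocyte markers, 2 (Tyr and Tyrp1) were listed at 0 in all 4 libraries, and 5 stayed under 1 FPKM throughout.

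Ngfr encodes the low-affinity neurotrophin receptor p75, found on Schwann cells and sympathetic axons, and occupies bases 95568818 to 95587735 of chromosome 11 (minus strand). It had 0.35 and 0.95 FPKM in Sox4f/f mice 1 and 2, whereas mice 1 and 2 labelled Sox4-MKO had 0.21 and 0.83 FPKM. In each genotype mouse 2 was higher than mouse 1, and the genotypes overlapped. About 9 to 47 fragments stood behind each value. The intervals of mouse 1 and mouse 2 did not meet within Sox4f/f, at 0.20 to 0.56 and 0.68 to 1.29 FPKM.

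Other genes of Schwann cells and myelin were read from a list of 28, of which 16 passed the filter, 5 of them only through the libraries labelled Sox4-MKO. Those 5 (Erbb3, Ncam1, Adgrg6, Drp2 and Pllp) could enter only by being higher there, so their direction carries no information. Of the 11 that passed in both genotypes, a count chosen after the data were seen, 11 had positive log2 differences with a median of 0.45, against -0.05 over all tested genes. At an unadjusted p under 0.05, 3 of the 11 were called higher and 0 lower, where 7.95% of all tested genes were called higher, and none was called after adjustment. The genotypes did not overlap in the higher direction at 7 of the 11, against 21.7% of all tested genes. With the other 5 included, the 16 had a median of 0.46 and all were higher, or 15 once libraries shared a median and 13 on quantile-normalized values. Of all genes that then passed the filter, 12 of 13 were higher without Sox4-MKO mouse 1, and 15 of 16 without each Sox4f/f mouse in turn. These counts again include genes that passed only through the libraries labelled Sox4-MKO, and no such count was made for the 11 alone.
Matn2, an extracellular matrix protein made by Schwann cells and fibroblasts, had 3.64 and 3.64 FPKM in Sox4f/f and 9.94 and 8.84 FPKM in the others, a log2 difference of 1.16 (SE 0.16, limma adjusted p = 0.191). Scn7a, an atypical sodium channel of glia, had 6.69 and 7.13 against 13.5 and 13.8 FPKM, a log2 difference of 0.89 (SE 0.14, limma adjusted p = 0.196). Both were steady within each genotype. The third called gene was Cnp, an enzyme of myelinating cells, with 5.57 and 5.69 against 7.79 and 7.83 FPKM.

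Adgrg6, an adhesion receptor that Schwann cells need to myelinate, had 0.60 and 0.42 against 2.00 and 0.81 FPKM, and is 1 of the 5 that passed only there.
Of the 28 genes, 11 stayed under 1 FPKM in every library. The summed level of the 28 thus follows the more abundant genes, among them Matn2 and Scn7a. It was 50.9 and 34.3 FPKM in Sox4f/f and 89.0 and 73.6 FPKM in the others. Fibroblast markers were higher in the same 2 libraries, with all 6 called higher at an unadjusted p under 0.05 and a median log2 difference of 1.10. Skeletal muscle markers had a median of 3.95 with 7 of 8 called higher, while 7.95% of all tested genes were called higher. The part of either in the Schwann cell values was not tested.

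**Figure D3:**
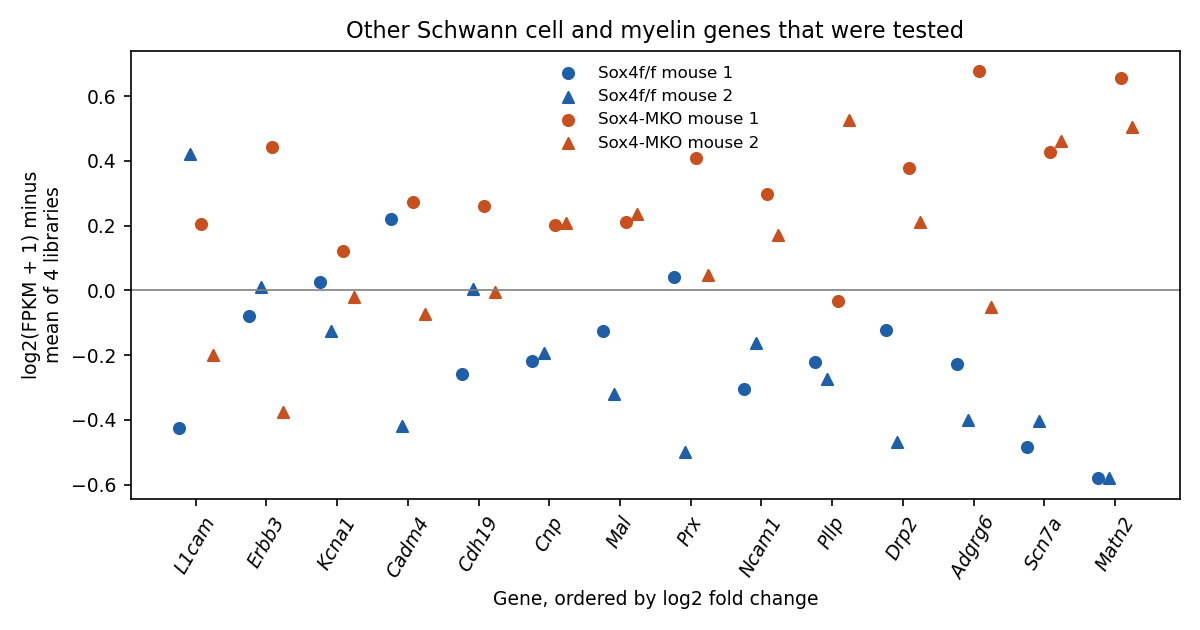
Log2(FPKM + 1) of 14 of the 16 other Schwann cell and myelin genes that were tested, each centred on its mean over the 4 libraries, 1 point per library. Matn2 and Scn7a show 2 separate pairs of points by genotype.

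Among 12 other neurotrophic ligands 4 were tested, and 0 were called at an unadjusted p under 0.05 or after adjustment by limma. Nrg4, a neuregulin that brown fat secretes, was the most abundant at 69.5 and 64.3 FPKM in Sox4f/f and 76.2 and 54.8 FPKM in the others, a log2 difference of -0.05. Ntf3, which encodes neurotrophin 3, had 1.76 and 2.26 against 2.12 and 1.44 FPKM. Cntf, the ciliary neurotrophic factor of Schwann cells, had 0.53 and 1.06 against 1.32 and 1.12 FPKM, and passed the filter only through the latter. Among the rest, 2 (Pspn and Nrg3) were listed at 0 in every library.

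Of 13 receptors 11 were tested, with 8 lower and 3 higher and a median log2 difference of -0.25. Erbb2 and Erbb4 passed the filter only through Sox4f/f and Ret only through the libraries labelled Sox4-MKO, so their directions carry no information. Of the 8 that passed in both genotypes 6 were lower, with a median of -0.27. Only Ntrk3, the neurotrophin 3 receptor TrkC, was called at an unadjusted p under 0.05, where 8.28% of all tested genes were called lower, and none after adjustment. It had 131.5 and 119.8 FPKM in Sox4f/f and 65.1 and 71.2 FPKM in the others, which did not overlap. Its log2 difference was -0.87 (SE 0.12, limma adjusted p = 0.196), and Ntrk3 was the most abundant of the receptors listed. Cntfr, the CNTF receptor, had 38.4 and 18.7 against 9.50 and 15.6 FPKM, a log2 difference of -1.07 (SE 0.41, limma adjusted p = 0.313). Gfra4 had 5.42 and 7.47 against 5.04 and 3.74 FPKM, and Erbb4 had 1.49 and 0.93 against 0.63 and 0.63 FPKM.
The receptors of neurturin, named here for that role, were low. Gfra2 had 0.63 and 1.504 FPKM in Sox4f/f and 1.56 and 1.52 FPKM in the others, and Ret had 0.80 and 1.11 against 1.3 and 1.65 FPKM. The Nrtn level was 3.26 to 16.2 times that of Gfra2.

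**Figure D4:**
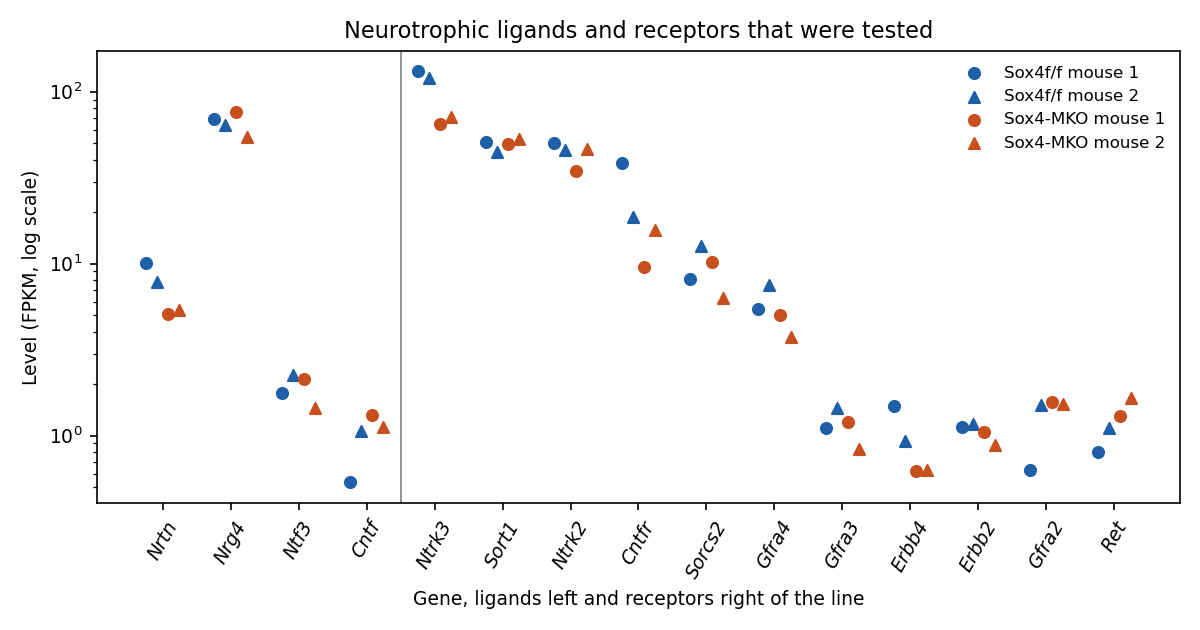
Level of Nrtn, 3 of the 4 other tested ligands and the 11 tested receptors in FPKM on a log axis, 1 point per library. Both Ntrk3 points of the libraries labelled Sox4-MKO, at 65.1 and 71.2, lie below the Sox4f/f points, and the ligand Nrg4 overlaps between the genotypes.

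Genes of sympathetic neurons and axons were mostly near 0 in this tissue, into which axons reach from cell bodies elsewhere. Of 21 genes, 18 did not pass the filter, and 4, among them Dbh, Npy and Hand2, were listed at 0 in all 4 libraries. Th, the first enzyme of catecholamine synthesis, was listed at 0 in both Sox4f/f libraries and had 0.56 and 0.12 FPKM in the others. Of the 3 tested genes, the vesicle protein gene Syp was called lower at an unadjusted p under 0.05, with 6.31 and 7.29 against 3.94 and 4.35 FPKM. The axonal enzyme gene Uchl1 was called higher, with 0.19 and 0.43 against 1.51 and 0.99 FPKM, and the growth cone gene Stmn2 was not called, with 0.72 and 1.21 against 1.22 and 1.73 FPKM. Uchl1 and Stmn2 passed the filter only through the libraries labelled Sox4-MKO, so they had to be higher there. Over all tested genes 8.28% were called lower and 7.95% higher, and none of the 3 was called after adjustment.

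In the S100 family, 9 of 14 other genes were tested, 2 were called lower and 3 higher at an unadjusted p under 0.05, where 8.28% and 7.95% of all tested genes were, and 0 after adjustment by limma. S100a1, the most abundant in Sox4f/f, had 389.6 and 443.1 FPKM there and 301.0 and 316.8 FPKM in the others, and S100a13, the other gene called lower, had 120.8 and 158.0 against 84.1 and 101.2 FPKM. S100a4, a gene of fibroblasts and leukocytes, had 10.3 and 7.07 against 29.0 and 19.8 FPKM, a log2 difference of 1.39 (SE 0.27, limma adjusted p = 0.196). S100a6 and S100a9 were the other genes called higher. S100a8, a neutrophil gene, was not called, with 1.31 and 0.76 against 1.73 and 4.59 FPKM. The level of S100b was 0.0503 to 0.0965 of that of S100a1.

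Genes whose profile over the 4 libraries was most like that of the 2 members with the largest changes were found by the root mean square difference of centred log2(FPKM + 1). For Clstn3 they were Grk3 (0.081), Sesn2 (0.092) and Pfkfb3 (0.118). For Nrtn they included Banp (0.031) and Cyth1 (0.044). Grk3, a kinase that desensitises adrenergic and other G protein-coupled receptors, had 30.1 and 36.7 FPKM in Sox4f/f and 13.5 and 22.0 FPKM in the others. With 4 libraries, such a likeness is a description of these mice.

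**Figure D5:**
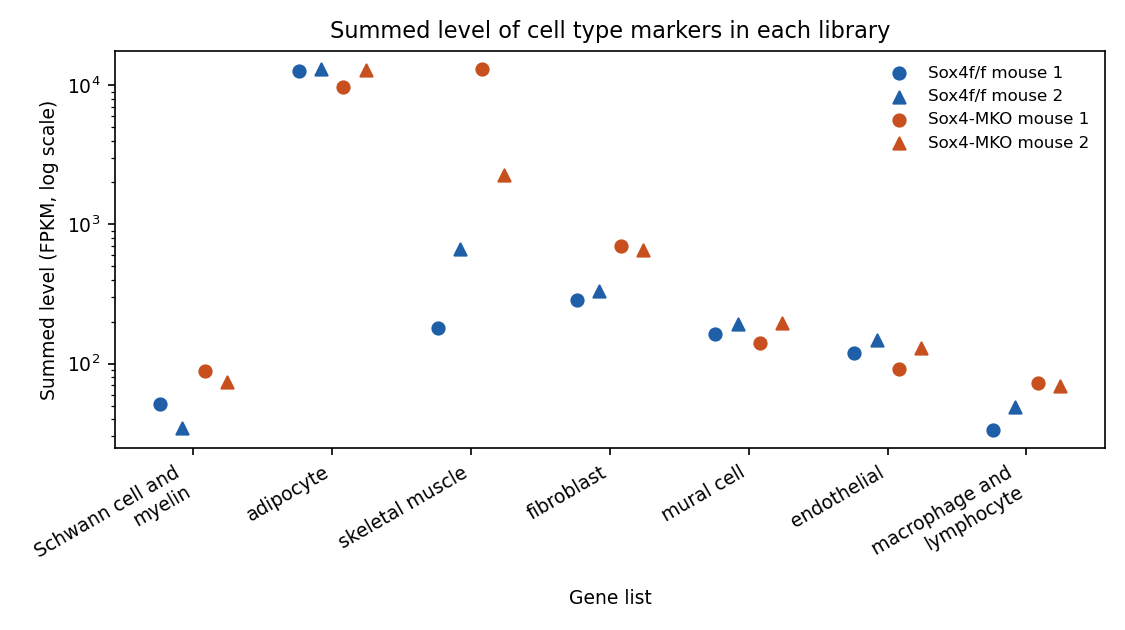
Summed FPKM of the 28 other Schwann cell and myelin genes and of markers of 6 other cell types, on a log axis, 1 point per library. The skeletal muscle sum runs from 181 to 13107 FPKM, and the fibroblast sum is 653 and 704 FPKM in those labelled Sox4-MKO, above the Sox4f/f points.

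The remaining marker lists were compared in the same fit, where 8.28% of all tested genes were called lower and 7.95% higher. Of 8 adipocyte markers, 3 (Ucp1, Cidea and Lipe) were called lower at an unadjusted p under 0.05, and the median log2 difference was -0.27. Of 6 tested macrophage and lymphocyte markers, 3 (Ptprc, Cd68 and Mrc1) were called higher, with a median of 0.66. Of 5 mural cell markers 1 (Cspg4) was called higher, with a median of 0.02 that ranged from -0.12 to 0.16 over the alternatives, and of 4 endothelial markers 0 were called by limma, with a median of -0.27. The single melanocyte marker tested, Mitf, had a log2 difference of 0.40. After adjustment none of these genes was called.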

How the data were processed

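BAT libraries of 2 Sox4f/f and 2 Sox4-MKO mice were grouped by their titles. The authors deposited 1 FPKM value per gene symbol and library, without counts. The submitters' processing notes name mm10, Cufflinks 2.1.1 and Cuffdiff. The aligner and the annotation are not given in the sources used here. The labels describe a stranded library kit and the methods an Illumina TruSeq kit. The members and lists were chosen with earlier results of these data known.

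Genes whose mean FPKM exceeded 1 in either genotype were tested with limma 3.58.1 in R 4.3.3 (genotype only, trended prior, two-sided) on log2(FPKM + 1), with Benjamini-Hochberg adjustment over all 12877. The p-values rest on the spread between these mice only, and the prior draws the variance of each gene toward a trend over all tested genes. The code was tested on simulated data.

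Depth was estimated from the lowest values of genes with 1 transcript of at least 1500 nt, and is approximate. Coordinates are from GENCODE M21. Named genes were Sox4, the members and up to 4 genes per list with the largest absolute log2 fold change. A few genes that this rule names are not reported here. Cnp, Lipe, S100a1, S100a13 and the markers called in lists of 3 or fewer were named after their values were seen. Alternatives were a replicate block, each library left out, 4 scalings, other filters, pseudocounts and no moderation.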

Additional observations from a re-analysis of the deposited data

How the results depend on the processing

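The direction of the 5 tested members was kept under all 15 alternatives, whereas Sox10 and Ngfr, which were not tested, changed sign when a library was left out (log2 fold change of -0.18 to 0.26 and -0.43 to 0.17). The replicate block, the other filters and the fit without moderation cannot change the log2 difference of a gene. Only the remaining alternatives could have altered a direction. The count of members with an unadjusted p under 0.05, 2 in the report, was 4 with the replicate block, 0 without moderation, 1 after adipocyte scaling, which was chosen after the data were seen, and 0 to 2 with each library left out. No member had an adjusted p under 0.05 in any of these. The median of the members was -0.13 with a filter of 0.1 and with no filter, since Sox10 and Ngfr then count, -0.49 after adipocyte scaling, and between -0.51 and -0.25 with each library left out. Over all tested genes 2090 were called, or 1242 after adipocyte scaling, which moved the median of all genes from -0.05 to 0.09, and 849 to 2394 with each library left out, with 0 to 5 after adjustment. The lower genes were 51% of the calls, 36.1% after rescaling without mitochondrially encoded genes and Ucp1, 13.6% after adipocyte scaling, 34.9% without Sox4-MKO mouse 2 and 62.8% without moderation. The median of the Schwann cell list, 0.46 in the report, was 0.28 after quantile normalization, and 0.72 and 0.77 with pseudocounts of 0.1 and 0.01. These 4 values include the 5 genes whose direction carries no information, because they passed only through the libraries labelled Sox4-MKO. A filter of 5 gave 1.02 from 4 genes, and Matn2 (genotype means 3.64 and 9.39) passed it only through that label. With no filter, the 28 genes gave 0.33. For the 11 genes that passed in both genotypes the median was 0.45, and it was not taken under the alternatives.

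The replicate numbers are shared between the genotypes without a label that ties them to a litter, and the deviations of same-numbered mice correlated at -0.01 over the tested genes. With the number as a replicate block, Mbp and Pmp22 had unadjusted p-values of 0.0136 and 0.0135 by limma. Low fragment counts limit Sox10 and Ngfr, and 2 mice per genotype limit all genes. Within each genotype the Poisson intervals of the mice did not meet for Ngfr and met for Sox10. These intervals rest on fragment counts from an approximate depth. The count of 2 members hides that Clstn3 was replaced by Mbp after quantile normalization and after rescaling without mitochondrially encoded genes and Ucp1.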
